A study of Homo sapiens with 4 samples.

Results

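Cholesterol synthesis, uptake and regulation was followed through 30 genes of a given list, all of which were found by symbol among the 61806 genes of the deposited table. All 30 are protein-coding in GENCODE release 29. RNA was sequenced from JJ012, a human chondrosarcoma cell line, and from 143B, a human osteosarcoma cell line. The 4 groups were JJ012 control, JJ012 melatonin, 143B control and 143B melatonin, with 1 library in each. Every culture, controls included, was kept in suspension. Treated cells received 1 mM melatonin for 72 h, and the labels give the controls as untreated and name no vehicle. The comparison addresses how melatonin alters gene expression in detached bone cancer cells. Adherent cultures were not analysed here, so detachment itself was not compared, and each tumour type is represented by a single line.

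Cells make cholesterol from acetyl-CoA in a long chain of reactions that passes through mevalonate, the isoprenoids and squalene, and they also take it up in lipoproteins. When sterols in the endoplasmic reticulum are scarce, SCAP carries the SREBP transcription factors to the Golgi, where they are cleaved and freed to switch on the genes of synthesis and uptake, while the INSIG proteins hold SCAP back when sterols are plentiful. The LXR receptors answer the opposite signal, an excess of oxysterols, and promote sterol export. Dividing cells need cholesterol for new membranes, and the pathway is often studied in tumours for that reason.

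Totals ranged from 15889564 to 19218343 counts per library, and between 13198 and 14477 genes reached 1 FPKM, the counts normalized to exonic length and library total. The share of mitochondrially encoded counts was 6.78% in the JJ012 control and 4.35% with melatonin, against 1.63% and 2.46% in 143B, and its part in the results was not tested. The labelled tumour types showed only part of their markers. Of 10 cartilage genes, 5 reached 1 FPKM in the JJ012 control, namely SOX9, SNORC and the collagen genes COL11A1, COL9A2 and COL11A2. COL11A1 was the highest of them, with 22.92 FPKM in the JJ012 control, 3.24 FPKM with melatonin and 0.00 FPKM in 143B. The cartilage matrix genes COL2A1, ACAN, COL9A1 and HAPLN1 were at or below 0.11 FPKM in all 4 libraries. Of 10 bone genes, 2 reached 1 FPKM in the 143B control (RUNX2 and BGLAP), SP7 was at or below 0.12 FPKM in every library, and DMP1 was listed at 0 in all 4. Summed over each list, the cartilage genes stood at 48.2 and 13.6 FPKM in control and treated JJ012 and at 23.5 and 20.5 FPKM in 143B. The bone genes summed to 108.9 and 69.4 FPKM in JJ012 and to 7.0 and 5.1 FPKM in 143B. Most of the JJ012 sums was SPP1, at 79.39 and 64.50 FPKM, which had 0.40 and 0.53 FPKM in 143B. The type I collagen genes went from 10.92 to 0.77 FPKM (COL1A1) and from 12.48 to 0.14 FPKM (COL1A2) in JJ012. In 143B these collagen genes were at or below 0.49 FPKM. The 6 markers of blood, endothelial and epithelial cells summed to 19.5 and 10.5 FPKM in JJ012 and to 40.5 and 26.7 FPKM in 143B, most of it KRT18, and the leukocyte gene PTPRC was at or below 0.14 FPKM throughout. All 3 sums were lower with melatonin in both lines, and the part of these differences in the results below was not tested.

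With 1 library per group there was no replicate check, so no difference could be set against the spread between cultures. Levels were raised by 1 FPKM and the treated level divided by the control level, and the log2 of this quotient is the log2 fold change. A gene was tested where either library of a comparison reached 1 FPKM, and it was called higher or lower from an absolute value of 0.58. The added 1 understates the change of weakly expressed genes. The ratio of counts after division by the library total (CPM) is therefore given for single genes, with an exact 95% interval for counting error only. The interval takes every count as independent, which copies made by PCR are not, so it may be too narrow even for counting error. In such bulk libraries, fewer cells expressing a gene and less RNA of it per cell cannot be told apart.

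With melatonin, the median fold change of the cholesterol genes lay above 0 in JJ012 and below 0 in 143B. In JJ012, 7 of 30 genes were higher with melatonin (NPC1, CYP51A1, SQLE, STARD4, MSMO1, FDFT1 and DHCR7) and 4 were lower (PMVK, FDPS, NPC2 and NR1H3). Higher calls made up 23.3% of the members, beside 19.6% of all 15794 genes tested and 17.8% of the protein-coding genes. Lower calls made up 13.3%, beside 18.6% of all genes and 16.1% of protein-coding genes. Both shares were near the background. In 143B, none of the 29 genes tested was higher and 2 were lower, HMGCS1 and EBP. That is 6.9% of the members, beside 6.65% of all 14135 genes tested and 2.6% of the protein-coding genes. Higher calls stood at 6.09% of all genes and 3.48% of protein-coding genes in this line.

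The displacement of the group was clearer in 143B than the count of calls. The fold change lay below 0 for 22 of 29 genes there, or 75.9%, against 46.1% of all genes and 43.7% of protein-coding genes. The median log2 fold change was -0.31 (95% interval of the median, -0.41 to -0.17), and single genes ran from -0.99 to 0.50. Such an interval is taken over genes that share the same libraries. It is a description and measures no spread between cultures. The median of protein-coding genes was 0.04. In JJ012 the fold change lay below 0 for 10 of 30 genes, or 33.3%, against 49.4% of all genes and 48.1% of protein-coding genes. The median was 0.19 (-0.07 to 0.45), with a range from -1.35 to 2.07 and a protein-coding median of 0.02. The wider spread in JJ012 was shared by protein-coding genes, whose 10th and 90th percentiles were -0.78 and 0.80 there and -0.31 and 0.40 in 143B. The cumulative plot shows the curve of 143B moved to the left of the background over most of its length.

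**Figure D1:**
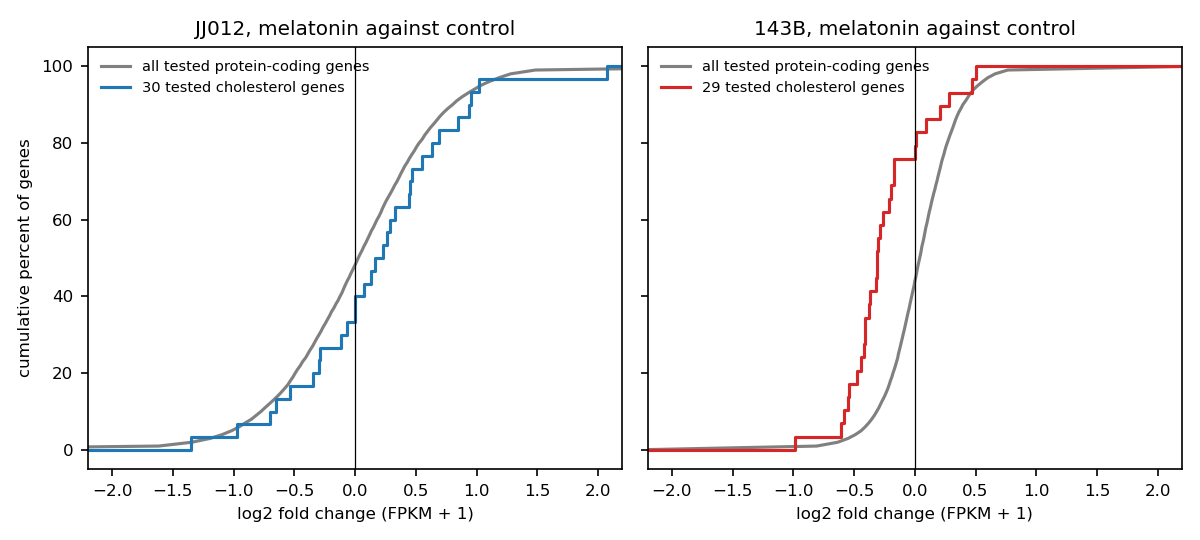
Cumulative percent of genes (vertical axis) against the log2 fold change with melatonin on the FPKM + 1 scale (horizontal axis), for the tested cholesterol genes (coloured steps) and all tested protein-coding genes (grey) in JJ012 (left) and 143B (right). In 143B, 75.9% of the cholesterol genes lie below 0 against 43.7% of protein-coding genes, and in JJ012 33.3% against 48.1%.

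The summed level of the 30 genes went from 507.5 to 639.3 FPKM with melatonin in JJ012, whereas in 143B it went from 707.5 to 544.8 FPKM. As a share of all counts, they took 0.234% and 0.358% of the JJ012 libraries and 0.399% and 0.307% of the 143B libraries. By counting error alone, the CPM interval lay wholly above 1 for 17 of 30 members in JJ012 (56.7%, against 42.1% of protein-coding genes) and wholly below 1 for 8 (26.7%, against 38.2%). In 143B it lay wholly above 1 for 4 of 29 members tested (13.8%, against 33.6%) and wholly below 1 for 22 (75.9%, against 25.7%). At this depth most genes of JJ012 had an interval that left out 1. The plot of levels shows the 4 libraries of every gene.

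**Figure D2:**
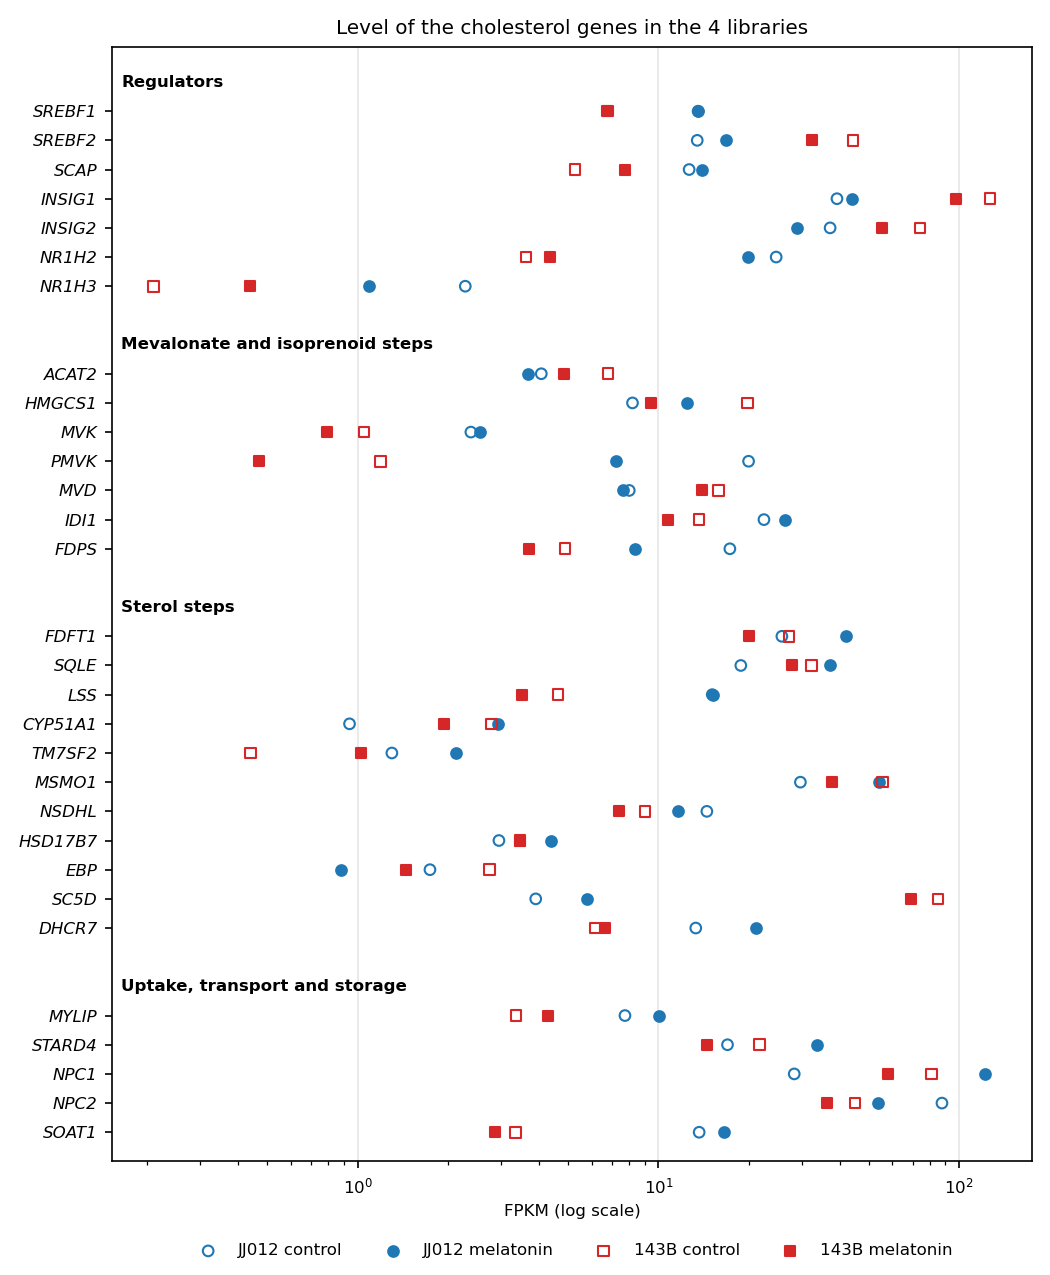
FPKM of each cholesterol gene (log axis) in the JJ012 control (open circles), JJ012 melatonin (filled circles), 143B control (open squares) and 143B melatonin (filled squares) libraries, by role. Levels range from 0.21 FPKM for NR1H3 in the 143B control to 126.73 FPKM for INSIG1 in the same library, and the filled squares lie left of the open squares for most genes.

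Promoter sequences give a view of the list that the expression values did not use. RefSeq (GRCh38.p14) gave a start site window for 27 of the 30 genes, and FDFT1, SQLE and ACAT2 had no entry in the table used. The 250 bases before each start were searched on both strands for an SREBP element (TCACNCCAC), an E-box (CACGTG) and the CCAAT box (CCAAT), the site of the factor NF-Y, which works beside SREBP at many sterol genes. The CCAAT box was present for 20 of 27 genes, or 74.1%, against 37% of all 27305 genes with a window. Among genes with a single window it was present for 14 of 20, against 33.4% of 22114. The SREBP element was found in 1 gene, SREBF2 (3.7% against 1.09%). The E-box was found in INSIG1, SC5D and SCAP (11.1% against 7.73%). Such matches are short letter strings, and they describe the windows without marking a bound site. Whether they relate to the fold changes was not tested.

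The windows below belong to SREBF2, which holds the SREBP element, INSIG1, which holds an E-box, HMGCS1, MSMO1 and STARD4, which stood higher with melatonin than control in the JJ012 counts and lower in the 143B counts, and NPC1, which had the widest gap between the lines and none of these motifs. They are written 5′ to 3′ on the strand of the gene, ending at the base before its start, with every match in capitals (ATTGG is CCAAT on the other strand). The SREBF2 window is chr22:41832855-41833104 on the plus strand, and its SREBP element starts at position -133 from the start site. The INSIG1 window is chr7:155297628-155297877, plus strand. The HMGCS1 window is chr5:43313413-43313662, minus strand, and holds 2 CCAAT boxes. The MSMO1 window is chr4:165327419-165327668, plus strand, and holds 4. The STARD4 window is chr5:111512536-111512785, minus strand, and holds 2. The NPC1 window is chr18:23586507-23586756, minus strand.
SREBF2: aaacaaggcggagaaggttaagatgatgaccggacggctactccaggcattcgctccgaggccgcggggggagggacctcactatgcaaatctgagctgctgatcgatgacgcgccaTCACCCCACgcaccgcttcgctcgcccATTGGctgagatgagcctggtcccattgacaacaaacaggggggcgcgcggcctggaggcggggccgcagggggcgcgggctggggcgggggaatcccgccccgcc
INSIG1: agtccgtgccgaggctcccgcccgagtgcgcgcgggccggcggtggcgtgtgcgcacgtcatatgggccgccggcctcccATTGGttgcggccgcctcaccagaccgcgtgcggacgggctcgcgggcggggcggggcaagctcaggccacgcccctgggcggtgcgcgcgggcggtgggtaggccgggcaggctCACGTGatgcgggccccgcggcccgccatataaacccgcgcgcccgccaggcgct
HMGCS1: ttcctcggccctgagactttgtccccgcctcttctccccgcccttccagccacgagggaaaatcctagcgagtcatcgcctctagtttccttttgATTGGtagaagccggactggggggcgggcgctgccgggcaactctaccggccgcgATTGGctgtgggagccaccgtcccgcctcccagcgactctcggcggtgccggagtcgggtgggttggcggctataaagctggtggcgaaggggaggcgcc
MSMO1: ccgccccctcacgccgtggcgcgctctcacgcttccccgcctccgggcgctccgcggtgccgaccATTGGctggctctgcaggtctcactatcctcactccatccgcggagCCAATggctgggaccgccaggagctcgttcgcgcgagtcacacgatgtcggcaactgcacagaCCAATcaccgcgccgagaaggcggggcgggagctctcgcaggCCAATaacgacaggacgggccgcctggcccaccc
STARD4: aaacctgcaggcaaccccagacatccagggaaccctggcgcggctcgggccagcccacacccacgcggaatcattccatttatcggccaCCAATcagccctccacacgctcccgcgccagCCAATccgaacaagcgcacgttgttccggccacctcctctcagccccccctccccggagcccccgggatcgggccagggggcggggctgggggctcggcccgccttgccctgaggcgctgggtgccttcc
NPC1: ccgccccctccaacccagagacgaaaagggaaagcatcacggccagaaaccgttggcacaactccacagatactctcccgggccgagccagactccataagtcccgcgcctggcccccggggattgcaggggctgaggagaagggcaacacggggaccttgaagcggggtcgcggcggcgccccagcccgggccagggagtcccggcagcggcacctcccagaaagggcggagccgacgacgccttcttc

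Among the 7 regulators, few passed the threshold in JJ012. None was higher and 1 was lower, beside 19.6% and 18.6% of all genes. The median log2 fold change was 0.00, although the counting interval left out 1 for all regulators but SREBF1. SREBF2 encodes SREBP-2, the main activator of the synthesis genes. It stood at 13.46 FPKM in the JJ012 control and 16.72 FPKM with melatonin, and at 44.29 and 32.39 FPKM in 143B. The 143B libraries were the higher pair, and treatment took them towards JJ012. On the CPM scale the SREBF2 ratio was 1.24 in JJ012 (log2 interval, 0.22 to 0.40) and 0.731 in 143B (-0.51 to -0.39). Both lay short of the threshold on opposite sides of 1. With the trend over gene length removed, as described below, the log2 fold change of SREBF2 in JJ012 went from 0.29 to 0.05. SREBF1, whose products also drive fatty acid genes, was level within counting error. It had 13.55 and 13.56 FPKM in JJ012 and 6.75 and 6.80 FPKM in 143B. SCAP, the SREBP escort, had 12.65 and 13.96 FPKM in JJ012 and 5.28 and 7.72 FPKM in 143B, where its log2 fold change of 0.47 was short of the threshold.

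The INSIG paralogs, which retain SCAP in the endoplasmic reticulum, were both more abundant in 143B. INSIG1, itself a known SREBP target, had 39.23 and 43.97 FPKM in control and treated JJ012 and 126.73 and 97.44 FPKM in 143B. INSIG2 had 37.22 and 28.94 FPKM in JJ012 and 74.01 and 55.40 FPKM in 143B. In 143B the paralogs had similar log2 fold changes, -0.38 for INSIG1 and -0.41 for INSIG2, while in JJ012 they lay on opposite sides of 0, at 0.16 and -0.35. The LXR genes were mainly JJ012 transcripts. NR1H2, which encodes LXR beta, had 24.63 and 19.81 FPKM in JJ012 and 3.63 and 4.35 FPKM in 143B. NR1H3, which encodes LXR alpha (chr11:47248300-47269033), had 199 counts in the JJ012 control and 80 with melatonin, or 2.28 and 1.09 FPKM. This was a log2 fold change of -0.65 and a CPM level 2.09-fold lower. In 143B NR1H3 had 15 and 34 counts, or 0.21 and 0.44 FPKM, and was not tested. It overlaps ACP2 on the other strand over 607 bases, and the strand setting of the counting is not given in the sources used here, so reads from such overlaps cannot be told apart.

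The 7 mevalonate and isoprenoid genes held the lowest fold change of each line on the FPKM + 1 scale. In JJ012 none was higher and 2 were lower, beside 19.6% and 18.6% of all genes, with a median of -0.07. In 143B all 7 lay below 0, beside 46.1% of all genes, with a median of -0.32. There 1 passed the threshold, beside 6.65% of all genes that were lower. PMVK, phosphomevalonate kinase (chr1:154924740-154936719), had 384 counts in the JJ012 control and 117 with melatonin, or 19.94 and 7.23 FPKM. Its log2 fold change was -1.35, and its CPM level was 2.76-fold lower (log2 interval, -1.77 to -1.16). In 143B it had only 19 and 8 counts, or 1.19 and 0.47 FPKM, a CPM level 2.57-fold lower whose interval ran from -2.76 to -0.10. The fold change of -0.58 was, before rounding, just short of the threshold. FDPS, which makes farnesyl pyrophosphate (chr1:155308748-155320666), had 17.28 and 8.35 FPKM in JJ012, from 1235 and 501 counts. That was a log2 fold change of -0.97 and a CPM level 2.07-fold lower (-1.20 to -0.90). FDPS overlaps the antisense gene RUSC1-AS1, which had 353 and 242 counts in these libraries. In 143B it had 4.89 and 3.71 FPKM, at -0.32. The JJ012 control was therefore the highest library for both enzymes.

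HMGCS1 encodes the cytosolic HMG-CoA synthase that commits acetyl-CoA units to this route (chr5:43287470-43313512, minus strand), and its promoter window above carries a pair of CCAAT boxes. It went the other way from PMVK and FDPS in JJ012, with 8.20 FPKM in the control and 12.44 FPKM with melatonin. The log2 fold change of 0.55 was short of the threshold, and the CPM ratio was 1.52 (log2 interval, 0.48 to 0.72). In 143B it had the lowest fold change of all 29 members tested on the FPKM + 1 scale (PMVK was lower by CPM ratio), with 19.81 FPKM in the control and 9.47 FPKM with melatonin, from 2086 and 1077 counts. This was -0.99 on the log2 scale and a CPM level 2.09-fold lower (-1.17 to -0.96). The control of 143B was the highest of the 4 libraries for HMGCS1, and the treated 143B library fell to near the JJ012 control. IDI1, which isomerizes isopentenyl pyrophosphate, lay at 0.23 in JJ012 and -0.31 in 143B. ACAT2, MVK and MVD, an acetyl-CoA acetyltransferase, mevalonate kinase and the decarboxylase that acts after PMVK, lay between -0.12 and 0.07 in JJ012 and between -0.41 and -0.17 in 143B. The ratios of these 3 genes in JJ012 included 1 within counting error.

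The sterol steps, from squalene onwards, held most of the higher calls in JJ012. Of 11 genes, 5 were higher and none was lower, with a median of 0.47 and a summed level that went from 127.9 to 197.5 FPKM. In 143B none was higher and 1 was lower, the median was -0.29, and the sum went from 229.2 to 180.2 FPKM. Of all genes tested, 19.6% were higher and 18.6% lower in JJ012, and 6.09% and 6.65% in 143B. FDFT1, squalene synthase, takes farnesyl pyrophosphate into the sterol branch. It had 25.73 and 42.00 FPKM in JJ012 (log2 fold change, 0.69) and 27.17 and 20.03 FPKM in 143B (-0.42). SQLE, the squalene epoxidase regarded as rate-limiting in this branch, had 18.79 and 37.19 FPKM in JJ012, with a fold change of 0.95 on the log2 scale and a CPM ratio of 1.98 (log2 interval, 0.89 to 1.08). In 143B it had 32.22 and 27.74 FPKM, at -0.21. For both genes the treated JJ012 library was the highest of the 4. LSS, which closes the ring to lanosterol, was level within counting error in JJ012, with 15.10 and 15.15 FPKM, and had 4.63 and 3.53 FPKM in 143B.

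After lanosterol, CYP51A1 removes the first methyl group (chr7:92084987-92134803, minus strand). It rose from 75 to 198 counts in JJ012, or from 0.94 to 2.94 FPKM. The log2 fold change was 1.02, and the CPM ratio was 3.14 (log2 interval, 1.26 to 2.06). The levels in 143B were 2.79 and 1.93 FPKM, at -0.37. The JJ012 control was the lowest library for this gene. Over 25687 bases it overlaps AKAP9 on the other strand, which had 1159 and 1565 counts in JJ012 and 1659 and 1870 counts in 143B, and the processed copy CYP51A1P2 had 2 and 18 counts in JJ012 and 9 and 17 counts in 143B, so its level is uncertain. MSMO1, the methylsterol oxidase of a later step (chr4:165327667-165343164), rose from 29.65 to 54.21 FPKM in JJ012, or from 1625 to 2496 counts. This was a log2 fold change of 0.85 and a CPM ratio of 1.83 (0.78 to 0.96). In 143B it stood at 55.52 and 37.81 FPKM, at -0.54, short of the threshold. Treated JJ012 thus reached the level of untreated 143B. The promoter window of MSMO1 shown above has more CCAAT boxes than the others printed. The box is also present for FDPS and EBP, whose fold changes lay below 0 in both lines.

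The remaining sterol enzymes were mixed. DHCR7, which reduces 7-dehydrocholesterol in the last stage, had 13.31 and 21.17 FPKM in JJ012 (log2 fold change, 0.63) and 6.16 and 6.62 FPKM in 143B (0.09). SC5D, the lathosterol desaturase that acts just before DHCR7, was the member that set the lines apart most. It had 3.91 and 5.81 FPKM in JJ012 against 84.99 and 69.24 FPKM in 143B, with fold changes of 0.47 and -0.29. EBP, the sterol isomerase, was low everywhere, with 59, 25, 77 and 44 counts in JJ012 control, JJ012 melatonin, 143B control and 143B melatonin. Its log2 fold change was -0.54 in JJ012, short of the threshold, and -0.61 in 143B, past it. The CPM level was 1.98-fold lower in JJ012 (log2 interval, -1.72 to -0.29) and 1.89-fold lower in 143B (-1.49 to -0.37). TM7SF2, a sterol reductase, had a positive value in both lines, at 0.44 in JJ012 and 0.50 in 143B, from 85 and 117 counts and from 24 and 60 counts. Its CPM ratio was 1.64 in JJ012 (log2 interval, 0.30 to 1.13) and 2.31 in 143B (lower bound, 0.51), and it passed 0.58 in both lines with a pseudocount of 0.1 or with CPM. HSD17B7 and NSDHL, which work together on the demethylation of the ring, lay at 0.45 and -0.29 in JJ012 and at 0.00 and -0.26 in 143B. The pseudogene HSD17B7P2 had between 25 and 53 counts per library, so the HSD17B7 level is uncertain.

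**Figure D3:**
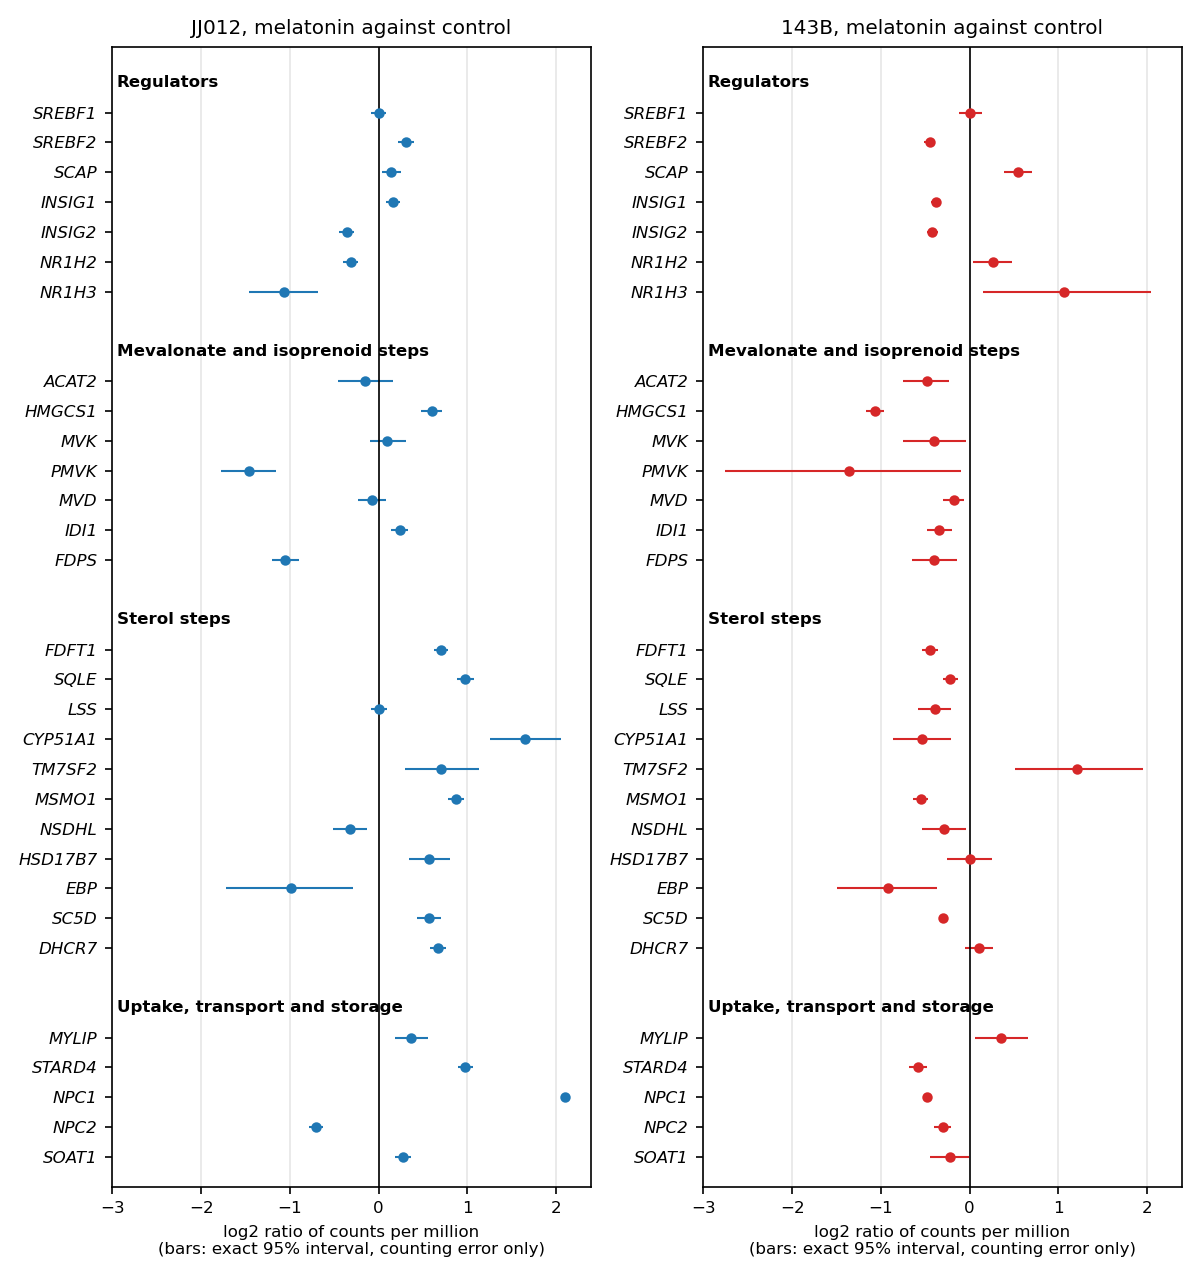
Log2 CPM ratio, melatonin against control, for each cholesterol gene in JJ012 (left) and 143B (right), with exact 95% intervals for counting error as bars. NPC1 stands farthest to the right in JJ012 at 2.10, and 22 of the 30 intervals of 143B lie wholly below 0.

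Uptake, transport and storage held the largest single change. NPC1, the membrane protein that moves cholesterol out of lysosomes (chr18:23506184-23586506, minus strand), rose from 5274 to 19055 counts in JJ012, or from 28.28 to 121.62 FPKM. Its log2 fold change was 2.07 and the CPM ratio 4.3, with a log2 interval from 2.06 to 2.15. The 143B libraries had 12467 and 9641 counts, or 80.85 and 57.87 FPKM, and the fold change of -0.48 was short of the threshold. The order of the libraries was treated JJ012, 143B control, treated 143B and JJ012 control. NPC1 overlaps RMC1 on the other strand over 25639 bases. RMC1 had 527 and 1001 counts in JJ012 and 316 and 490 counts in 143B, far below NPC1 in each library. NPC2, the soluble lysosomal partner that hands cholesterol to NPC1, moved the other way in JJ012. It had 87.62 and 53.63 FPKM, from 4351 and 2237 counts. Its log2 fold change was -0.70, with a CPM level 1.63-fold lower (log2 interval, -0.78 to -0.63). The levels in 143B were 44.98 and 36.43 FPKM, at -0.30. The pair thus diverged in JJ012 and lay on the same side of 0 in 143B.

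STARD4, a cytosolic sterol carrier (chr5:111496033-111512590, minus strand), rose in JJ012 from 16.97 to 33.58 FPKM, or from 1854 to 3081 counts. The log2 fold change was 0.94 and the CPM ratio 1.98 (log2 interval, 0.90 to 1.07). The 143B libraries had 21.72 and 14.52 FPKM, at -0.55, short of the threshold. Its antisense neighbour STARD4-AS1 had between 115 and 311 counts per library. MYLIP, a ubiquitin ligase that marks lipoprotein receptors for breakdown, lay at 0.33 in JJ012 and 0.28 in 143B. SOAT1, which esterifies cholesterol for storage, lay at 0.26 in JJ012 and -0.17 in 143B. Over these 5 genes the summed level was 154.3 FPKM in both controls, 235.4 FPKM in treated JJ012 and 116.0 FPKM in treated 143B. The difference of NPC1 in JJ012 exceeded that of the sum, since NPC2 was lower.

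Set side by side, 14 of the 29 members tested in both lines (48.3%) lay above 0 in JJ012 and below 0 in 143B. This was found for 23.2% of the 9811 protein-coding genes tested in both. The 14 include LSS, which was level within counting error in JJ012 (15.10 and 15.15 FPKM). Another 8 (27.6%) lay below 0 in both lines, against 19.3% of protein-coding genes, and 5 (17.2%) lay above 0 in both, against 31.5%. A single member, NR1H2, was below 0 in JJ012 and above 0 in 143B (3.45%, against 25.5%), and HSD17B7 had 3.47 FPKM in both 143B libraries. Counting intervals on opposite sides of 1, above in JJ012 and below in 143B, were found for 12 of the 29 members (41.4%, against 12.1% of protein-coding genes). These were SREBF2, INSIG1, HMGCS1, IDI1, FDFT1, SQLE, CYP51A1, MSMO1, SC5D, STARD4, NPC1 and SOAT1. The reverse was found for NR1H2 alone (3.45%, against 11.7%), and for NR1H3, which was not tested in 143B. Intervals below 1 in both lines were found for 6 (INSIG2, PMVK, FDPS, NSDHL, EBP and NPC2, 20.7% against 9.17%) and above 1 in both for 3 (SCAP, TM7SF2 and MYLIP, 10.3% against 16.2%). The scatter of both lines shows the larger set in its lower right part and the set of 6 in its lower left.

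**Figure D4:**
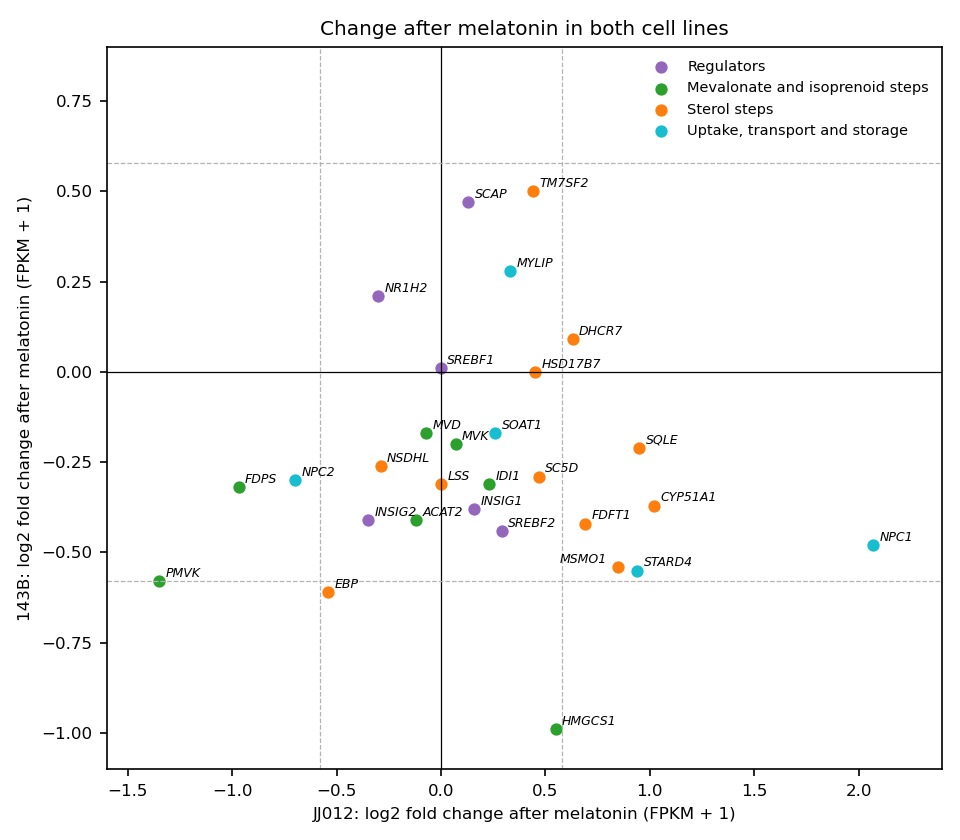
Log2 fold change with melatonin (FPKM + 1) in JJ012 (horizontal) against 143B (vertical) for the 29 cholesterol genes tested in both lines, coloured by role, with dashed lines at 0.58 in each direction. The lower right part holds 14 genes, NPC1 farthest to the right at 2.07 and HMGCS1 lowest at -0.99.

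More members differed between the untreated lines than between either line and its treated culture. These differences use the same controls as the melatonin comparisons and are given as levels. In the 143B control, 11 members were higher than in the JJ012 control (36.7%) and 15 were lower (50.0%). Over all 16929 genes tested, 27.4% were higher and 41.3% lower, and over protein-coding genes 25.1% were higher and 39.6% lower. The genes higher in 143B included SC5D, 21.8-fold on the CPM scale, SREBF2 at 3.29-fold, INSIG1 at 3.23-fold, CYP51A1 at 2.98-fold and NPC1 at 2.86-fold. Those lower in 143B included PMVK, 16.7-fold, NR1H3, 11.0-fold, NR1H2, 6.79-fold, SOAT1, 4.08-fold, FDPS, 3.53-fold, and LSS, 3.26-fold. SREBF1 was 2.01-fold lower, so the SREBF paralogs differed between the lines in opposite directions. The enzymes of synthesis did not sit uniformly higher in either line. With library scaling by TMM factors, which set the bulk of genes level between libraries, the split was 13 higher and 11 lower. Of all 16718 genes tested with this scaling, 35.5% were higher and 32.4% lower, so the background shifted as well.

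Fold changes in JJ012 followed gene length across the transcriptome, and this touches the members. The running median over all tested genes in JJ012 went from -0.296 at an exonic length of 775 bases to 0.283 at 9445 bases, while in 143B it was -0.056 and 0.002 at the same lengths and no higher than 0.094 between them. Over the 30 members, Spearman's correlation of length and log2 fold change was 0.41 in JJ012, and over 29 members it was 0.19 in 143B. These points share the same libraries, and genes are not replicates. PMVK has the shortest exonic length of the list, 1002 bases, and NPC1 is among the longest, with 9705 bases. Less the running median, the log2 fold change was -1.02 for PMVK and 1.75 for NPC1, so each kept its direction and stayed past the threshold. MSMO1 came to 1.06, CYP51A1 to 1.08, SQLE to 0.99, STARD4 to 0.92, FDFT1 to 0.61 and FDPS to -0.85. DHCR7 at 0.48 and NPC2 at -0.51 no longer passed. Members with opposite counting intervals but short of the threshold in JJ012 stayed above 0. SREBF2 came to 0.05, SOAT1 to 0.13, SC5D to 0.18, INSIG1 to 0.26, IDI1 to 0.27 and HMGCS1 to 0.41. SREBF1, SCAP, MVK and LSS went from above 0 to between -0.23 and -0.04, while ACAT2 and NSDHL came to 0.08 and 0.06. In 143B, HMGCS1 came to -1.01 and EBP to -0.69. The median of the members was then 0.10 in JJ012 and -0.35 in 143B.

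**Figure D5:**
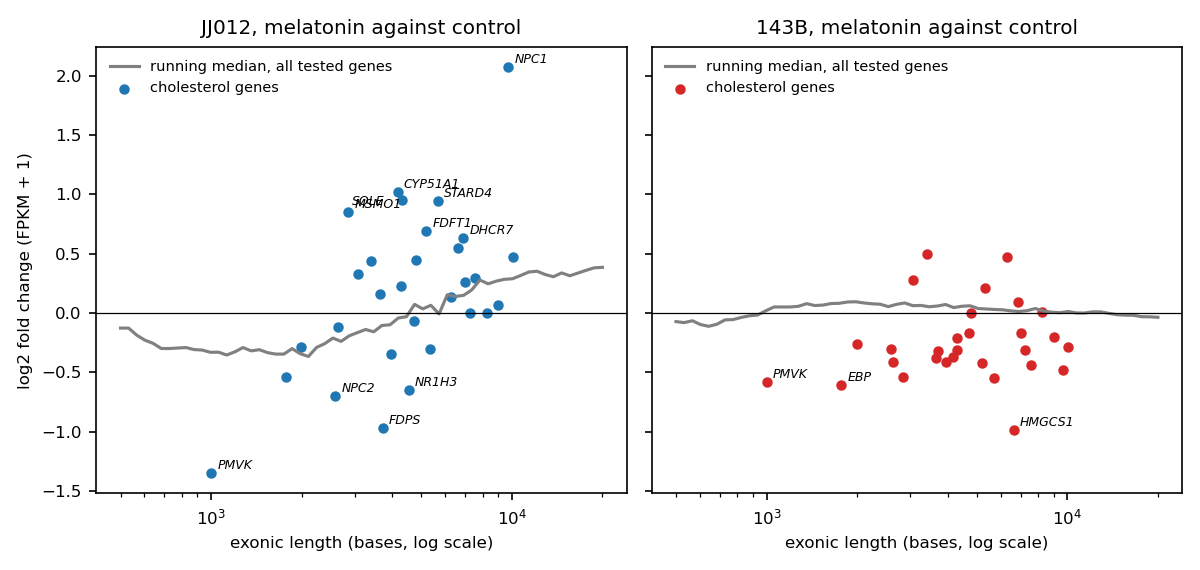
Log2 fold change with melatonin (FPKM + 1) against exonic length in bases (log axis) for the cholesterol genes (points) and the running median of all tested genes (grey line) in JJ012 (left) and 143B (right). The grey line climbs with length in JJ012, and NPC1 at 2.07 and PMVK at -1.35 stand well outside it.

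Genes that work around the pathway were counted from 7 further lists, 49 genes in all. In JJ012, 44 were tested, of which 9 were higher and 5 lower with melatonin, with a median log2 fold change of 0.11. These were 20.5% and 11.4%, against 19.6% and 18.6% of all genes, so the share of higher genes was near the background. In 143B, 45 were tested, of which none was higher and 1 lower (2.22%, against 6.65% of all genes), with a median of 0.07. The lower shift of the members in 143B was thus not seen in the median of these neighbours. Their single lower gene in 143B was ACSS2, which makes acetyl-CoA from acetate, with 9.85 and 5.46 FPKM (-0.75), against 9.86 and 14.40 FPKM in JJ012 (0.50, short of the threshold). Of 7 electron donors and scaffolds of the sterol enzymes, 6 lay below 0 in 143B, beside 46.1% of all genes, with a median of -0.14. POR, which passes electrons to CYP51A1 and SQLE, lay at -0.45 there, and PGRMC1, a haem-binding partner of P450 enzymes, at -0.47. ERG28 lay at -0.35, CYB5A, CYB5B and LBR between -0.14 and -0.08, and CYB5R3 at 0.12. In JJ012, LBR, a nuclear envelope protein with sterol reductase activity, was higher (0.74), and the scaffold ERG28 (-0.74) and the reductase CYB5R3 (-0.67) were lower. With the length trend removed these came to 0.74, -0.48 and -0.97, so the ERG28 call was lost. Of 10 lipoprotein receptors and sterol transporters, 4 were higher and 1 lower in JJ012, beside 19.6% and 18.6% of all genes. In this list 6 lay below 0, beside 49.4% of all genes, and the median was -0.14. The carriers that were higher were OSBP and 2 GRAMD1 genes, while SCP2, STARD3 and GRAMD1C lay between -0.26 and -0.12. OSBP, an oxysterol-binding protein, went from 22.98 to 44.06 FPKM (0.91), GRAMD1A from 10.67 to 20.31 FPKM (0.87) and GRAMD1B from 1.36 to 2.70 FPKM (0.65). With the length trend removed they came to 0.84, 0.83 and 0.33, so GRAMD1B no longer passed. None of these 3 passed in 143B, where they lay between -0.04 and 0.21.

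The fatty acid genes that SREBP proteins also drive did not move as a block. In JJ012, SCD, the stearoyl-CoA desaturase, went from 370.34 to 749.18 FPKM (1.01) and ACACA, acetyl-CoA carboxylase, from 4.35 to 9.46 FPKM (0.97), while FASN, fatty acid synthase, went from 15.45 to 9.46 FPKM (-0.65). Of the 6 genes, 2 were higher and 1 lower in JJ012, beside 19.6% and 18.6% of all genes. None of the 6 passed in 143B, where their median was 0.20. Among lipoprotein receptors in JJ012, LRP8 was higher (0.88) and VLDLR lower (-0.66). Both have a long exonic length, and with the length trend removed LRP8 came to 0.49, short of the threshold, while VLDLR stayed past it. The LXR target LPCAT3, a phospholipid acyltransferase, was higher (0.89). Of the 9 genes of the non-sterol branches, FNTB, a farnesyltransferase subunit, was the only gene to pass in JJ012 (-0.69), and none passed in 143B.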

How the data were processed

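RNA was measured in 4 libraries, 1 per group. Per the labels' processing notes, the submitters named cutadapt 1.9.1, HISAT2 2.2.1, HTSeq 0.6.1 and DESeq2 with the hg38 build. The strand setting and annotation are not given in the sources used here. The authors deposited raw counts per gene, exonic lengths, and FPKM, which equalled counts normalized to length and library total within 0.005 for all 61806 genes. Columns were matched to samples by line name, and the suffix T was read as melatonin. The log2 fold change used FPKM with a pseudocount of 1, a minimum of 1 FPKM in at least 1 library and a threshold of 0.58, the study's fold criterion without its FDR, since no spread could be estimated. No count model was fitted, because a quasi-likelihood fit in edgeR cannot estimate dispersion from 1 library per group. CPM ratios carry exact (Clopper-Pearson) 95% intervals. The floor of 3 counts was between 0.156 and 0.189 CPM. Order statistics over genes gave the interval of each median, as a description. The trend over length was a running median over 501 genes. Every member was accounted for, and members past the threshold and the paralog pairs were given in full. The members, lists and roles were chosen with earlier results of these data known, so the members' patterns are not independent support. Some genes of the pathway are not reported here. Alternatives were a pseudocount of 0.1, no filter, a minimum of 5 FPKM, TPM, CPM, TMM factors (edgeR 4.0.16), median-of-ratios size factors (DESeq2 1.42.0), centring on the median gene, removal of the length trend and a threshold of 1. Centring on the median protein-coding gene, and protein-coding genes as a background, were added after seeing the data. The procedures were tested on simulated counts. Computations used Python 3.11.15, numpy 2.4.6, scipy 1.17.1, pandas 2.3.3, matplotlib 3.10.9 and R 4.3.3.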

Additional observations from a re-analysis of the deposited data

Results flagged for a closer look

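For 7 genes the fold change with melatonin passed 0.58 in a line, pointed the opposite way in the other line, and had counting intervals wholly on opposite sides of 1. That is 24.1% of the 29 members tested in both lines, beside 10.8% of 9811 protein-coding genes. The difference between the lines, 143B minus JJ012 on the log2 CPM scale, was not tested, since each line had 1 control and 1 treated library. It was -2.59 for the lysosomal cholesterol exporter NPC1 (95% interval for counting error, -2.65 to -2.53) and -2.19 for the lanosterol demethylase CYP51A1 (-2.68 to -1.69). It was -1.67 for HMGCS1 (-1.82 to -1.51), -1.57 for the sterol carrier STARD4 (-1.69 to -1.44) and -1.42 for the methylsterol oxidase MSMO1 (-1.55 to -1.30). The squalene enzymes SQLE and FDFT1 differed by -1.20 (-1.33 to -1.08) and -1.15 (-1.26 to -1.03). In each case the value was positive in JJ012 and negative in 143B. Of the 7, on the FPKM + 1 scale, HMGCS1 passed 0.58 in 143B alone (it lay at 0.55 in JJ012), and the other 6 passed it in JJ012 alone.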

How the results depend on the processing

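Within a line no paired analysis was possible, since each line had 1 control and 1 treated library. The labels carry no replicate numbers that pair cultures. A fit of treatment over both lines, with line as a block, would average the lines and was not run. The median of the members stayed above 0 in JJ012 and below 0 in 143B (-0.38 to -0.30) under every alternative run. In JJ012 it was 0.10 with the length trend removed and 0.47 with TPM, a scaling that moved the median of all tested genes to 0.21. The 10 JJ012 members below 0 became 12 with size factors, with either centring and with the length trend removed. They were 8 with TPM and 9 with TMM factors. With TPM, 12 members were higher and 4 lower in JJ012, against 7 and 4, and 2 were higher and 5 lower in 143B, against 0 and 2. The same scaling called 33.0% of all genes higher and 19.9% lower in JJ012, against 19.6% and 18.6% in the main setting. For 143B these shares were 13.2% and 15.5%, against 6.09% and 6.65%. In 143B, CPM gave 2 higher and a pseudocount of 0.1 gave 1 higher, TM7SF2. These settings called 7.36% and 10.7% of all genes higher. Lower members in 143B numbered 5 with size factors, 4 with the length trend removed, 5 when centred on the median protein-coding gene and 1 with a minimum of 5 FPKM, where fewer genes were tested. In the same order, 7.64%, 6.52%, 7.47% and 3.76% of all genes were lower. At a threshold of 1, there were 2 higher and 1 lower in JJ012, 0 lower in 143B, and 5 higher and 8 lower in the 143B control against the JJ012 control. Of all genes at this threshold, 7.86% were higher and 6.88% lower in JJ012, and 2.74% were lower in 143B. Between the controls, 18.5% were higher and 28.7% lower. PMVK, MSMO1 and STARD4 in 143B lay close to 0.58 and crossed it under several scalings. NR1H3 in JJ012 fell just short with TMM factors, and NPC2 came to -0.43 with TPM. HMGCS1 in JJ012 passed with a pseudocount of 0.1, TPM, CPM and TMM factors (0.59 to 0.85), and EBP in JJ012 with the first 3 of these (-0.91 to -0.59). No member past the threshold changed its direction. PMVK and EBP in 143B rest on fewer than 100 counts per library, so their folds are imprecise, and depth gives no measure of the variation between cultures.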
